A study of Mus musculus with 6 samples.

Results

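The Hedgehog pathway genes *Gli1*, *Gli2*, *Gli3*, *Ptch1*, *Smo*, *Sufu*, *Hhip*, *Shh* and *Ihh* were examined in epithelial cancer cells of mouse cutaneous squamous cell carcinoma (cSCC). The members were taken by gene symbol: every probe set that the platform annotation assigns to 1 of these symbols and to no other gene was used, which gave 18 probe sets for 9 genes among 45141 probe sets and 17097 named genes on the array. Full epithelial cancer cells came from 3 well differentiated tumors (WD-SCCs), and EpCAM+ plastic cancer cells came from 3 moderately or poorly differentiated tumors (MD/PD-SCCs). Both populations were sorted as α6-integrin+CD45-EpCAM+ cells and hybridized as 1 Affymetrix expression array per independent tumor. The comparison asks how the epithelial cells of the more advanced tumors differ from those of the well differentiated ones.

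Both groups belong to the same model. The tumors derive from K14-HPV16 Tg/+ mice, in which the keratin 14 promoter drives viral oncogenes in basal keratinocytes, and were maintained by engraftment. According to the paper, the original tumors arose spontaneously or were induced with DMBA/TPA. The labels do not say which applied to each arrayed tumor. The array labels give neither the age of the animals nor the engraftment history of each tumor, so relations between the tumors of the 2 groups could not be followed. For the tumors it implanted, the paper describes the hosts as male mice within a single age range of some weeks. Nude mice, used as hosts for serial engraftment, lack mature T cells.

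In Hedgehog signaling, a secreted ligand such as Shh or Ihh binds the receptor Ptch1 and so relieves its inhibition of the membrane protein Smo. Active Smo, in the primary cilium, releases the Gli transcription factors from their restraint by Sufu, and Gli1, Ptch1 and Hhip are themselves transcribed as targets of the pathway, the latter pair acting as brakes on it. In skin the pathway is known for its part in hair follicle growth and, when *Ptch1* is lost, in basal cell carcinoma.

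Of the pathway's targets among the members, *Gli1* had no entry in the promoter sequences used. For *Ptch1* and *Hhip*, the 250 bases before their annotated starts are shown, as given by RefSeq on build GRCm38.p6. Capitals mark the core CCACCC of the Gli binding consensus, searched on both strands (reverse GGGTGG).
Ptch1 chr13:63565736-63565985 (minus strand): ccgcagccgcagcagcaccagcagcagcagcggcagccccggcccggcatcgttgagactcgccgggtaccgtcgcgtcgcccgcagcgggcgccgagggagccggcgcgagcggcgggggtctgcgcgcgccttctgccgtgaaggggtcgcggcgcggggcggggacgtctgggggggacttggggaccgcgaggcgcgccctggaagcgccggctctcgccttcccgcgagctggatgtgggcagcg
Hhip chr8:80058009-80058258 (minus strand): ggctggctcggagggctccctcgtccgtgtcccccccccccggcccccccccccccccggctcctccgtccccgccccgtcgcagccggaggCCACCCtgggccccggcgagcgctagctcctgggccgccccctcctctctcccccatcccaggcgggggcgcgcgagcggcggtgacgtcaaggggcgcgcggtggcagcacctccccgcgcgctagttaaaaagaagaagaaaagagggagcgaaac
The *Ptch1* window held no core and the *Hhip* window held 1. Of the 7 members found in the RefSeq promoter table used, 5 (*Gli2*, *Gli3*, *Hhip*, *Ihh* and *Smo*) held the core in at least 1 window. The core occurs in 28.1% of all 32851 windows of this length, a share per window and not per gene. The longer consensus GACCACCCA (reverse TGGGTGGTC), which contains the core, was in 0.225% of windows and in 0 of the 7 members. These are matches of letters and not measured binding sites.

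No member passed the test. With limma over all probe sets, 0 of the 18 member probe sets reached an adjusted p under 0.05, while 5.98% of all probe sets did, 4.11% higher and 1.87% lower in EpCAM+ plastic cells. None met the study's rule either, which adds an absolute log2 difference of at least 1 and left 2.42% of all probe sets. At an unadjusted p under 0.05 there were 2 member probe sets, 1 of *Sufu* and 1 of *Gli3*, both higher in EpCAM+ plastic cells, against 21.3% of all probe sets (12.6% higher and 8.66% lower). The member differences, EpCAM+ plastic minus full epithelial on the log2 scale, ran from -0.09 to 0.58 with a median of 0.09, beside a median of -0.03 over all probe sets. Of the 18, 10 lay above 0 and 8 below. The widest bounds among the 95% intervals were -0.48 and 0.90, the latter a 1.86-fold difference. A value in such sorted populations is an average, in which fewer cells expressing a gene and less RNA per cell cannot be told apart.

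Most member probe sets gave low signals, as did most probe sets of the array. All values are log2 signals after robust multi-array averaging (RMA), and the 95th percentile of the 23 background probe sets of the array, 5.73, is taken here as a bound (2 of the 23 lay above it). Of the member probe sets, 14 exceeded this bound on 0 of the 6 arrays, 2 (1 each of *Gli3* and *Sufu*) on some, and 2 (1 each of *Smo* and *Ptch1*) on all 6. By the mean over the 6 arrays, 3 of the 18 member probe sets lay above the bound, beside 36% of all probe sets. At the brightest probe set, 8457 of all 17097 genes exceeded it on no array, as did *Gli1*, *Gli2*, *Hhip*, *Shh* and *Ihh*. Differences between signals near background can understate a change in RNA. The plot of member signals by array shows each gene at its brightest probe set.

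**Figure D1:**
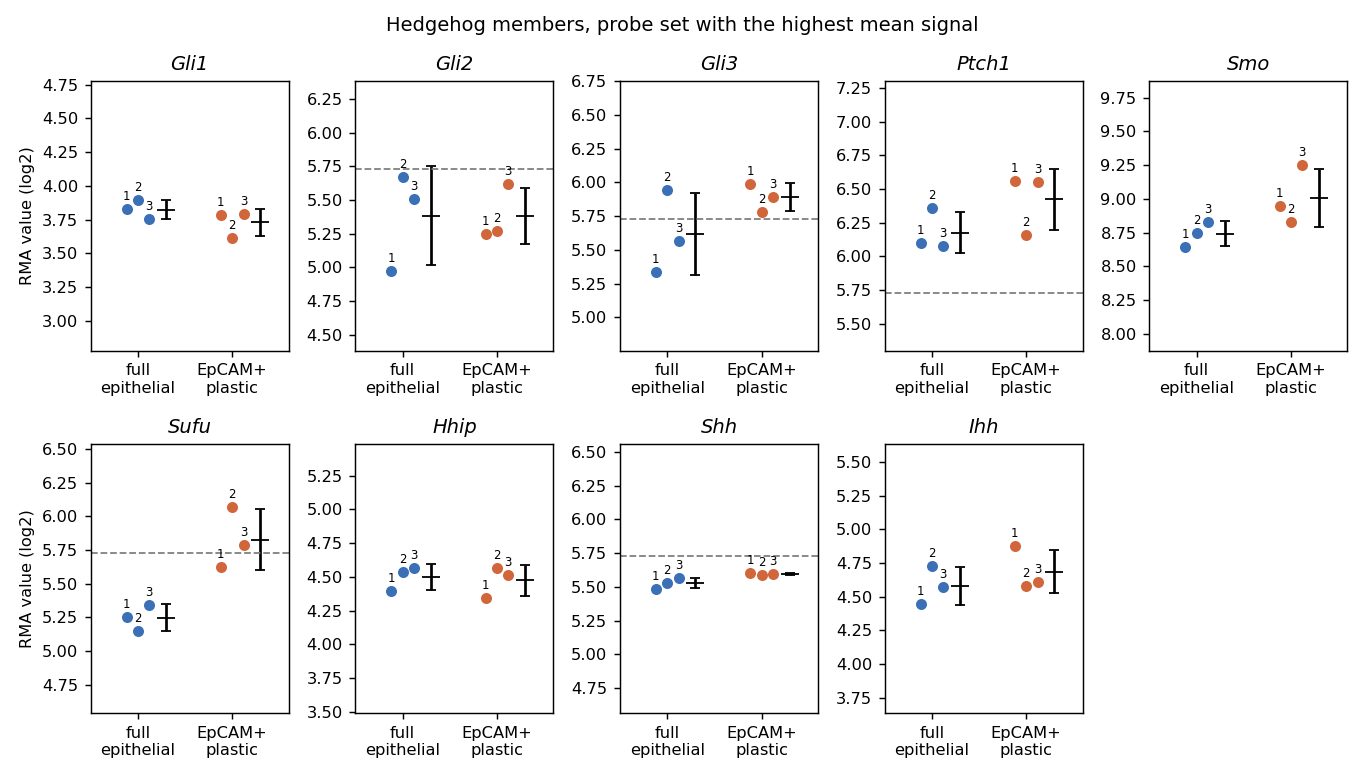
Log2 RMA signal (y axis, the same span in each panel) of the brightest probe set of each Hedgehog member on each of the 6 arrays, by group, with replicate numbers, group means and SD (n = 3), and a dashed line at the background bound of 5.73 where it falls within a panel. *Smo* and *Ptch1* lie above the bound on all arrays, *Gli3* and *Sufu* lie around it, and the points of *Gli1*, *Gli2*, *Hhip*, *Shh* and *Ihh* lie below it.

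Neither ligand exceeded the background bound on any array, though the signals of both lay above the median of the background probe sets, 3.37. *Shh*, the ligand of the hair follicle and of many embryonic signaling centers, gave signals of 5.49, 5.53 and 5.57 in full epithelial cells and of 5.60, 5.59 and 5.59 in EpCAM+ plastic cells. The groups did not overlap, but the difference was 0.07 (SE 0.08, 95% interval -0.12 to 0.26, n = 3 against 3, limma adjusted p = 0.696). For *Ihh*, best known from cartilage and gut, the signals were 4.44, 4.73 and 4.57 against 4.87, 4.58 and 4.61. Here the groups overlapped, with a difference of 0.10 (95% interval -0.19 to 0.40, adjusted p = 0.694).

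At the membrane, the receptor and the transducer were both measurable and did not pass the test. *Ptch1* gave 6.10, 6.36 and 6.08 in full epithelial cells and 6.56, 6.16 and 6.55 in EpCAM+ plastic cells. EpCAM+ plastic replicate 2 lay within the full epithelial range and the other 2 lay above it, for a difference of 0.25 (SE 0.14, 95% interval -0.10 to 0.59, adjusted p = 0.393). The value was 0.14 after repeated quantile normalization and 0.38 without EpCAM+ plastic replicate 2. A second *Ptch1* probe set, below the bound on all arrays, differed by -0.08 (95% interval -0.34 to 0.19), and the mean over both was 0.08. *Hhip*, a membrane protein that sequesters the ligands, has 4 probe sets, none above the bound on any array. The brightest read 4.39, 4.54 and 4.57 against 4.35, 4.56 and 4.52. All 4 differences were close to 0, from -0.06 to -0.02, and the interval of the brightest was -0.26 to 0.22 (adjusted p = 0.926).

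*Smo*, which carries the signal across the membrane, gave 8.64, 8.75 and 8.83 in full epithelial cells and 8.95, 8.83 and 9.25 in EpCAM+ plastic cells. The groups touched at a single point, as EpCAM+ plastic replicate 2 lay just under full epithelial replicate 3. The means were 8.74 ± 0.09 and 9.01 ± 0.22 (SD, n = 3 each), with a difference of 0.27 (SE 0.13, 95% interval -0.04 to 0.58, limma adjusted p = 0.307). This value fell to 0.14 without EpCAM+ plastic replicate 3 and was 0.36 without EpCAM+ plastic replicate 2. The other *Smo* probe set, below the bound, differed by 0.15 (adjusted p = 0.552).

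*Sufu*, the cytoplasmic restraint on the Gli proteins, had the largest difference among the members. Its brightest probe set gave 5.25, 5.15 and 5.34 in full epithelial cells and 5.62, 6.07 and 5.79 in EpCAM+ plastic cells. Every EpCAM+ plastic array was above every full epithelial array, although only 2 of the 6 arrays exceeded the background bound. The means were 5.25 ± 0.10 and 5.83 ± 0.23 (SD, n = 3 each), a difference of 0.58 (SE 0.13, 95% interval 0.26 to 0.90) that missed the threshold (limma adjusted p = 0.0559). A second probe set overlapped between groups with 0.32 (95% interval -0.01 to 0.65, adjusted p = 0.250), and the third differed by -0.08 (adjusted p = 0.723). The mean over the 3 probe sets was 0.27.

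*Sufu* lies on chromosome 19. Its neighbors were counted after its values had been seen. Of the 20 nearest measured genes, 10 on each side in RefSeq order, 7 were higher in EpCAM+ plastic cells at an adjusted p under 0.05 and 0 were lower, with a median difference of 0.21. Over the other 568 genes of the chromosome, 100 (17.6%) were higher and 1 was lower, beside 5.3% higher and 1.91% lower over all genes. The difference of *Sufu* was met or exceeded by 22% of genes on chromosome 19. On the chromosomes of the other members, between 2.04% and 7.11% of genes were higher, and at most 2 of the 20 neighbors of each were. Whether the chromosomal position has a part in the *Sufu* value was not tested.

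The 3 Gli factors are the transcriptional end of the pathway. *Gli1*, an activator and direct target, gave 3.83, 3.90 and 3.75 in full epithelial cells and 3.79, 3.62 and 3.79 in EpCAM+ plastic cells. The signals overlapped and were all far below the bound, with a difference of -0.09 (SE 0.09, 95% interval -0.32 to 0.13, adjusted p = 0.644). *Gli2*, the main activator in skin, gave 4.97, 5.67 and 5.50 against 5.25, 5.27 and 5.62. The groups overlapped throughout, and its interval was the widest of the brightest probe sets on the lower side (difference -0.0036, 95% interval -0.48 to 0.47, adjusted p = 0.994). Its second probe set, also below the bound, differed by 0.20 (95% interval -0.15 to 0.56, adjusted p = 0.503).

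*Gli3*, which acts largely as a repressor when the pathway is off, differed by similar amounts on both probe sets. The brighter gave 5.34, 5.94 and 5.57 in full epithelial cells and 5.99, 5.78 and 5.89 in EpCAM+ plastic cells, and exceeded the bound on 4 arrays. Full epithelial replicate 2 lay within the EpCAM+ plastic range, and the difference was 0.27 (SE 0.16, 95% interval -0.11 to 0.66, adjusted p = 0.400). It was 0.13 without full epithelial replicate 1 and 0.44 without full epithelial replicate 2. The dimmer gave 4.33, 4.73 and 4.63 against 4.88, 5.02 and 4.94. On this probe set, below the bound on all arrays, the groups did not overlap (difference 0.38, SE 0.12, 95% interval 0.09 to 0.68, adjusted p = 0.137). In all, 3 member probe sets (1 each of *Sufu*, *Gli3* and *Shh*) lay higher in EpCAM+ plastic cells without overlap and 0 lay lower, while 13.5% and 13.2% of all probe sets did so.

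**Figure D2:**
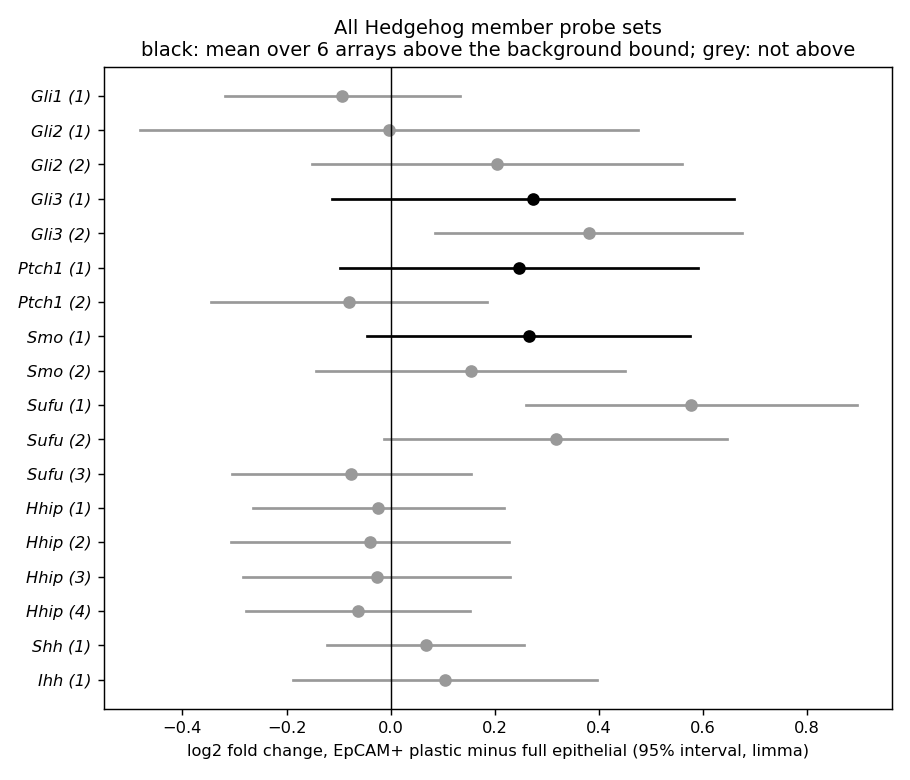
Difference in log2 signal, EpCAM+ plastic minus full epithelial (x axis), of each of the 18 member probe sets with its 95% interval from limma (n = 3 arrays each). The intervals of 16 probe sets include 0, and those of 1 *Sufu* and 1 *Gli3* probe set lie above it.

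The remaining pathway genes were taken from lists written from general knowledge, with the earlier results of these data known. Of 61 genes named, 54 were measured, and at an adjusted p under 0.05 on the brightest probe set 4 were higher and 1 was lower in EpCAM+ plastic cells. Those shares are near the 5.3% and 1.91% of all genes, and the median difference was -0.02 in the lists and over all genes alike.

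Genes that make, release and receive the ligand stayed below the threshold. The third ligand, *Dhh*, differed by 0.04. None of the 5 genes of ligand processing and release had a mean above the bound. *Hhat*, the acyltransferase that attaches palmitate to the ligand, differed by 0.60 (adjusted p = 0.0741), and *Disp1*, which releases the lipid-bearing ligand, by 0.52 (adjusted p = 0.0997). The groups did not overlap for either gene, and the signals of both were below the bound on all arrays. Of all probe sets, 13.5% lay higher and 13.2% lower without overlap. The co-receptors *Boc*, *Cdon* and *Gas1* read 0.00, -0.11 and -0.05.

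Among 14 regulators of Smo and the cilium, only *Mosmo*, which lowers Smo at the membrane, passed the test. Over all genes, 5.3% passed as higher and 1.91% as lower. It gave 4.73, 4.37 and 4.80 in full epithelial cells and 5.19, 5.50 and 5.34 in EpCAM+ plastic cells, for a difference of 0.71 (SE 0.15, adjusted p = 0.0416). The signal was below the bound on all arrays, a second probe set differed by 0.29 (adjusted p = 0.365), and leaving out any 1 array raised the adjusted p to between 0.0655 and 0.118. *Gpr161*, a ciliary receptor that keeps the pathway off through protein kinase A, gave 5.12, 6.32 and 5.90 against 7.08, 7.23 and 6.89. Its groups did not overlap and differed by 1.28 (SE 0.29, 95% interval 0.59 to 1.97), just short of the threshold (adjusted p = 0.0523). Its other probe set differed by 0.09. *Kif7*, the ciliary kinesin that binds Gli proteins, differed by -0.0044 (adjusted p = 0.985).

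Of 18 kinases, ubiquitin ligases and other modifiers of Gli proteins, 2 were higher, 1 was lower and 15 did not pass, beside 5.3% higher and 1.91% lower over all genes. The median difference of the list was -0.02. *Prkacb*, a catalytic subunit of protein kinase A, the kinase that primes Gli proteins for cleavage, gave 5.71, 6.15 and 6.25 in full epithelial cells and 7.86, 7.62 and 7.77 in EpCAM+ plastic cells. It rose by 1.71 (SE 0.16, 95% interval 1.34 to 2.09, adjusted p = 0.00650), and a second probe set rose by 0.86 (adjusted p = 0.0274). The other catalytic subunit gene, *Prkaca*, differed by -0.02, and the regulatory subunit *Prkar1a* by 0.36 (adjusted p = 0.0869) at its brightest probe set. Of the 3 *Prkar1a* probe sets, 1 passed the test.

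*Btrc*, the substrate receptor of the ubiquitin ligase for phosphorylated Gli proteins, gave 5.75, 6.70 and 6.32 against 7.46, 7.39 and 7.40. It rose by 1.16 (SE 0.23, 95% interval 0.62 to 1.70, adjusted p = 0.0352) on 1 of 5 probe sets, while the other 4, none above the bound, read -0.27 to 0.01. The call was lost without full epithelial replicate 3 (adjusted p = 0.0878) and without EpCAM+ plastic replicate 1, 2 or 3 (0.119, 0.0609 and 0.100). Like *Sufu*, *Btrc* lies on chromosome 19, with 24 measured genes between them, and 6 of its 20 neighbors were higher.

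*Dyrk2*, a kinase reported to mark Gli2 for degradation, was the only listed pathway gene called lower. Among those that missed the threshold, *Csnk1a1*, a casein kinase acting on Gli proteins, differed by -0.39 (adjusted p = 0.131). The ciliary transport gene *Ift52* differed by -0.38 (adjusted p = 0.0649). Another casein kinase gene, *Csnk1g1*, went the other way, by 0.60 (adjusted p = 0.113). None of these overlapped between groups, while 13.5% of all probe sets lay higher and 13.2% lower without overlap. At an unadjusted p under 0.05, 5 of the 18 modifiers were higher and 2 lower. Of the 14 regulators of Smo and the cilium, 2 were higher and 1 lower, beside 2544 and 1541 of all 17097 genes. *Dyrk2* gave 8.67, 8.12 and 8.29 in full epithelial cells and 6.71, 7.59 and 6.93 in EpCAM+ plastic cells, a difference of -1.28 (SE 0.25, 95% interval -1.88 to -0.69, adjusted p = 0.0356). EpCAM+ plastic replicate 2 was the least reduced, and without it the adjusted p was 0.0151. Without any other single array it was between 0.0637 and 0.109.

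Of 13 measured genes known as Hedgehog targets outside the member set, 1 was higher and 0 were lower, beside 5.3% and 1.91% of all genes. *Ccnd1*, encoding the cyclin of the G1 phase and a target of several other pathways, gave 9.32, 9.70 and 9.68 in full epithelial cells and 10.70, 10.88 and 10.71 in EpCAM+ plastic cells. It rose by 1.20 (SE 0.13, 95% interval 0.89 to 1.50, adjusted p = 0.00865), and all 3 of its probe sets passed, with differences of 1.14 to 1.20. *Mycn*, a Gli target in neural precursors, differed by -0.23 (adjusted p = 0.396), *Sox9* by 0.17 (adjusted p = 0.423) and *Bcl2* by 0.38 (adjusted p = 0.576). Without overlap between groups but short of the threshold, *Cdk6*, a kinase that partners D-type cyclins, differed by 0.65 (adjusted p = 0.0571), *Foxf2* by 0.63 (adjusted p = 0.0746), the cell cycle factor *Foxm1* by 0.55 (adjusted p = 0.0811) and *Nkx6-1* by -0.30 (adjusted p = 0.152). Over all probe sets, 13.5% lay higher and 13.2% lower without overlap. The list's median was 0.17, beside -0.02 over all genes. At an unadjusted p under 0.05 there were 4 higher and 1 lower, beside 2544 and 1541 of all 17097 genes. *Prkacb* and *Ccnd1* were called without each of the 6 arrays in turn, at adjusted p values of 0.0121 to 0.0352 and 0.0164 to 0.0410.

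**Figure D3:**
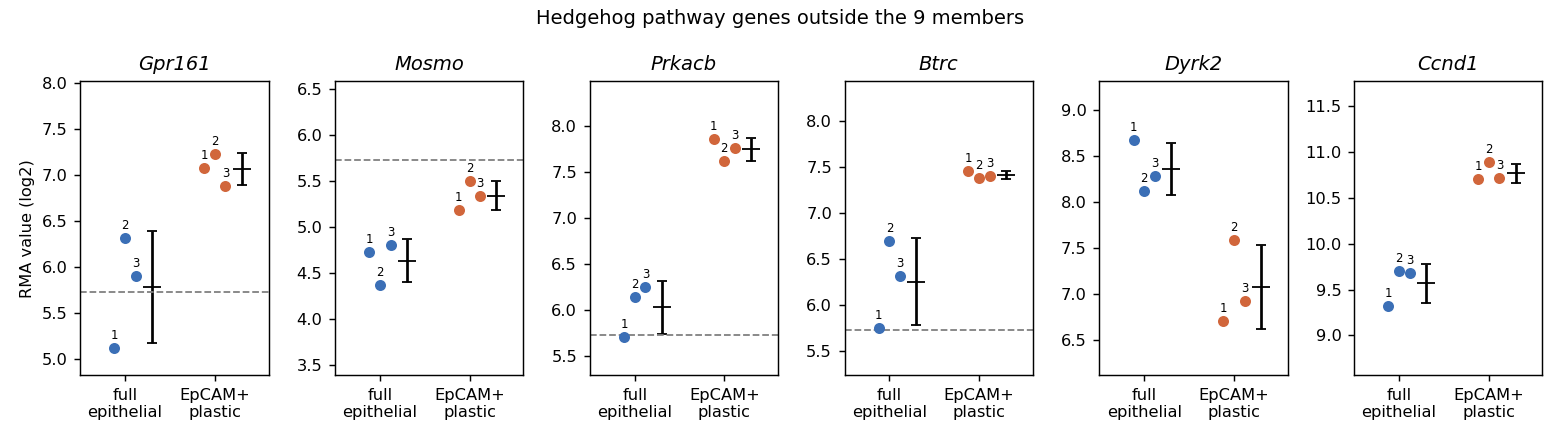
Log2 RMA signal (y axis) on each of the 6 arrays, by group, of *Prkacb*, *Btrc*, *Mosmo*, *Gpr161*, *Dyrk2* and *Ccnd1* at their brightest probe sets, with replicate numbers, group means and SD (n = 3), and a dashed line at the background bound of 5.73 where it falls within a panel. The genes are those of the pathway lists that passed the test, and *Gpr161*, so separate groups follow largely from this choice. The groups are separate for all 6 genes, *Dyrk2* alone being lower in EpCAM+ plastic cells. Over all probe sets, 13.5% lay higher and 13.2% lower without overlap.

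**Figure D4:**
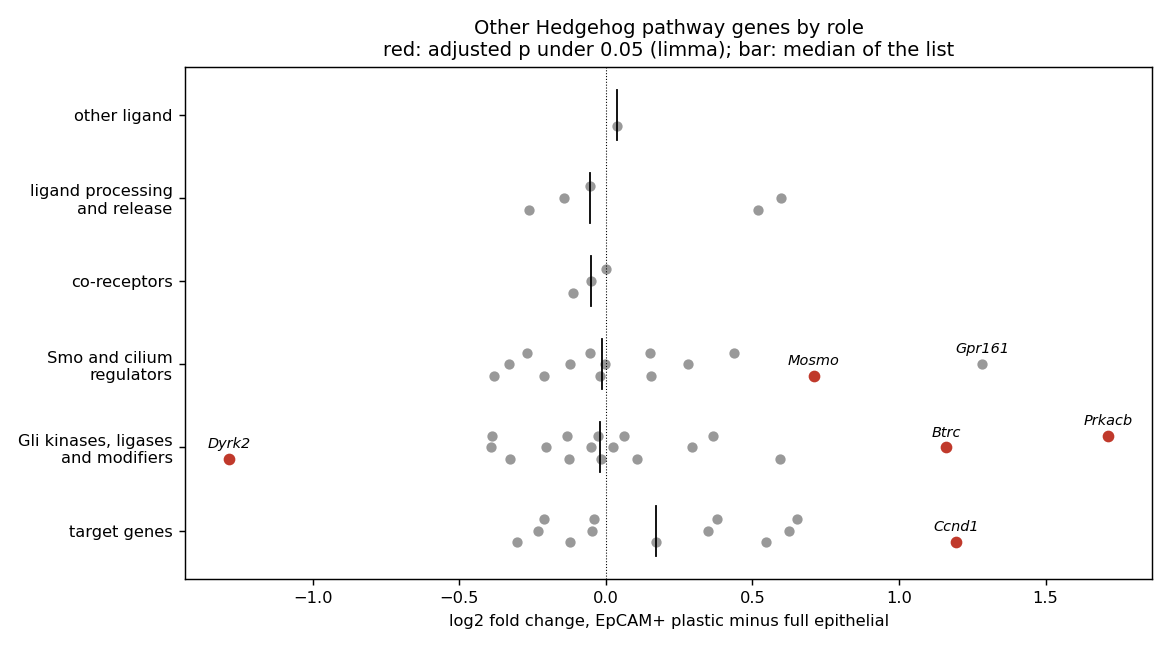
Difference in log2 signal, EpCAM+ plastic minus full epithelial (x axis), of each measured gene in the 6 pathway lists outside the member set, 1 point per gene at its brightest probe set, with a bar at each list's median. Genes with an adjusted p under 0.05 (limma) are red, 4 higher and 1 lower, and the labelled grey point is *Gpr161*.

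*Smo* was the member with the highest signal relative to background, and the genes most like it over the 6 arrays were *Bcl2l2* (Pearson's r = 0.990), *Cxcl10* (0.988) and *H2-Q4* (0.988). They are named by size of r as a description over 6 arrays that share both groups, and 259 of 17096 genes had r above 0.9. *Cxcl10*, an interferon-induced chemokine, gave 4.46, 4.74 and 4.78 in full epithelial cells and 5.32, 4.81 and 6.20 in EpCAM+ plastic cells. The MHC class I gene *H2-Q4* gave 5.97, 6.83 and 7.20 against 7.46, 6.87 and 9.03. Both had, like *Smo*, their highest signal in EpCAM+ plastic replicate 3.

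The sorted cells carried epithelial markers at a mean log2 level of 9.54 to 9.85 in full epithelial and 9.66 to 9.95 in EpCAM+ plastic arrays. The mean of 11 fibroblast markers was 5.00 to 5.18 in full epithelial arrays and 4.90 to 5.86 in EpCAM+ plastic arrays, the highest value being that of replicate 2. That array also had the highest *Sufu* signal, and without it the *Sufu* difference was 0.46 (adjusted p = 0.0829). It had the lowest *Ptch1* and *Smo* signals of its group. Of the fibroblast markers 1 of 11 passed the test, *Fn1*, which encodes the matrix protein fibronectin, with a difference of 2.05 (adjusted p = 0.0116). Of the pericyte and muscle markers 1 of 4 passed, *Acta2*, the actin of smooth muscle, with 1.19 (adjusted p = 0.0272), and both were higher in EpCAM+ plastic cells. Over all genes, 5.3% were called higher. Of the leukocyte and endothelial markers, 0 of 8 and 0 of 6 passed. At an unadjusted p under 0.05, 3 of the 8 leukocyte markers were lower in EpCAM+ plastic cells, beside 1541 of all 17097 genes. Of these 3, *Cd3e* and *Lyz2* were below the bound on all arrays. *Ptprc*, which encodes the CD45 used to sort the cells, was above the bound on 0 arrays, while the macrophage marker *Cd68* was above it on all 6 (difference -0.92, adjusted p = 0.148), *Cd79a* on 5 and *Csf1r* on 2. The part of cells other than carcinoma cells in the member values was not tested. Across probe sets, arrays correlated at 0.979 to 0.990 within and 0.954 to 0.976 between groups.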

How the data were processed

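Cancer cells from 3 WD-SCCs and 3 MD/PD-SCCs were profiled on 1 Affymetrix mouse expression array per tumor, after whole-transcriptome amplification of the sorted cells' RNA. The values deposited by the authors are log2 signals made with RMA (version: not given in the sources used). RMA removes background, equalizes probe distributions between arrays and summarizes 1 log2 value per probe set. The values came in 2 tables that were identical (largest difference 0), and no further normalization was applied. Precision is limited by the number of arrays.

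Gene names came from the platform annotation, where 28898 name 1 gene, 551 name more than 1 and 15692 have no entry. Symbols were updated through RefSeq (GRCm38.p6) for 28689 and kept for 209. Of the probe sets listing several genes, 1 includes a member and was left out. A gene was represented by its brightest probe set by mean over all 6 arrays.

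EpCAM+ plastic was compared with full epithelial with limma (version 3.58.1, R 4.3.3) over all 45141 probe sets with no covariate. The p-values are two-sided and adjusted over all probe sets by Benjamini-Hochberg, with a threshold of 0.05. The script was tested on simulated data. All 9 members are described. Of the pathway lists, the genes that passed the test and *Boc*, *Cdon*, *Gas1*, *Kif7*, *Gpr161*, *Ccnd1* and *Mycn* were named by rule (1 further gene of the rule is not reported here), as were the 3 genes most correlated with the brightest member. Chromosomal neighbors were to be counted for members that passed, and those of *Sufu* and other named genes were added. Other genes are context chosen after their values were seen. The members, lists and tests were chosen with earlier results of these data known. Alternatives were quantile normalization of the probe set values, a filter at the background bound, limma-trend, array weights, the replicate number as a block, averaging probe sets, counting any probe set of a gene, the study's thresholds, the second table, and leaving out each array.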

Additional observations from a re-analysis of the deposited data

How the results depend on the processing

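Under the alternatives run, 0 of the 18 member probe sets passed, and *Sufu* gave 0.46 to 0.68 without single arrays (adjusted p 0.0800 to 0.141). The filter at the background bound gave no value for the 6 members whose brightest probe set lay below it. Differences near 0 changed sign: *Gli2* was 0.10 as a mean over probe sets and -0.21 to 0.14 without single arrays, *Hhip* 0.0039 after repeated quantile normalization and -0.077 to 0.041 without single arrays, *Boc* -0.028 after that normalization, -0.066 with array weights and -0.10 to 0.11 without single arrays, *Gas1* -0.15 to 0.053 without single arrays, and *Kif7* 0.025 after that normalization, 0.011 with array weights and -0.047 to 0.039 without single arrays. In the pathway lists, 4 genes higher and 1 lower became 2 and 0 with the replicate block, 2 lower after repeated quantile normalization, and 2 to 5 higher and 0 to 1 lower without single arrays. Counting any probe set of a gene gave 5 higher and 1 lower. The count higher was 6 with array weights, 5 with limma-trend and 5 with the filter at the background bound. It was 3 after repeated quantile normalization and 3 with the study's thresholds. The count of genes higher was 2 on leaving out full epithelial replicate 3, EpCAM+ plastic replicate 1 or EpCAM+ plastic replicate 3, and the count lower was 0 without any array but EpCAM+ plastic replicate 2. *Gpr161* passed with the filter (adjusted p = 0.0268), limma-trend (0.0376), array weights (0.0354) and without full epithelial replicate 2 (0.0390). *Btrc* missed after repeated quantile normalization (0.0558), and the replicate block lost *Btrc* (0.0862), *Mosmo* (0.128) and *Dyrk2* (0.114). Same-numbered arrays did not deviate together (correlations -0.18, -0.37 and -0.01). With 3 arrays per group, these correlations cannot decide whether any samples of the 2 groups were paired. Over all probe sets, the 2699 calls became 483 with the block and 576 to 2627 without single arrays, and the share of calls higher in EpCAM+ plastic cells was 68.8%, or 56.5% after repeated quantile normalization. The causes were not tested.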

Other observations

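Among 8 hair follicle markers, 2 were higher in EpCAM+ plastic cells at an adjusted p under 0.05 with limma and 0 were lower, beside 5.3% and 1.91% of all genes. The median difference over the list was -0.04. At an unadjusted p under 0.05 there were 2 higher and 2 lower, beside 2544 and 1541 of all 17097 genes. *Lgr6*, a stem cell marker of the upper follicle, gave 4.58, 4.44 and 4.74 in full epithelial cells and 5.80, 5.37 and 5.75 in EpCAM+ plastic cells, a difference of 1.05 (SE 0.15, adjusted p = 0.0142) with signals above the background bound on 2 arrays. *Nfatc1*, a transcription factor of bulge stem cells, gave 6.23, 6.48 and 6.15 against 7.14, 7.09 and 7.21, a difference of 0.86 (SE 0.11, adjusted p = 0.0126), and 2 of its 5 probe sets passed. Lower at an unadjusted p under 0.05 were *Krt75*, a keratin of the companion layer, with -1.27 (95% interval -2.47 to -0.07, adjusted p = 0.211), and *Msx2*, with -0.30 (adjusted p = 0.227). The stem cell markers *Lgr5*, *Lhx2* and *Cd34* were below the bound on all arrays.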
